A study of Mus musculus with 3 samples.

Results

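Stfa1, Stfa2l1, BC100530 and Gm5483 are 4 genes of the mouse stefin A cluster, and they were followed here through the cells of inflamed knee synovium. They were matched by symbol among the 24357 gene symbols of the deposited matrices and were selected on these same counts, by how much higher their level and percent of positive cells were in neutrophils than in other cell classes, so that bias is described and not tested. RefSeq lists Gm5483 as Cstdc4 and BC100530 as Cstdc5. The cells came from female wild-type C57BL/6 mice aged 8 weeks with collagen- and antibody-induced arthritis, which received 100 µg of type II collagen on day 0, 1 mg of a cocktail of antibodies against collagen on day 21 and lipopolysaccharide (LPS) on day 22, and were sampled in the effector phase. The 3 libraries form a single group, each made from the tissue of 2 mice (6 mice in total), and there was no untreated group.

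Stefins are small cytosolic proteins that bind and block cysteine proteases of the cathepsin family, such as the lysosomal enzymes that digest proteins taken up by phagocytes. Humans have a single gene for stefin A, while in the mouse it has expanded into a cluster of close copies on chromosome 16. In mice, several of these copies are known for their expression in neutrophils, the short-lived granulocytes of acute inflammation that carry large stores of proteases.

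The copies lie side by side and resemble each other closely. In the RefSeq order on chromosome 16, Stfa2l1 is followed by Gm5483, then Gm5416 (Csta3 in RefSeq), 2010005H15Rik (Csta2), Stfa1, BC117090, BC100530, Stfa2 and Stfa3, counting only the genes followed here. The 4 promoters, each 250 bases before to 50 bases after the RefSeq gene start on build GRCm38.p6, are shown because they share a run of 13 bases in which no base differs. Capitals mark that run, which is 1 of 2 runs of this length shared by all 4 sequences on the gene strand, with none longer. The other, gatcatttcttct, is left in lower case and starts at base 1 of the annotated gene in Gm5483 and Stfa1, 4 bases before the start in Stfa2l1 and at base 22 in BC100530.
Gm5483: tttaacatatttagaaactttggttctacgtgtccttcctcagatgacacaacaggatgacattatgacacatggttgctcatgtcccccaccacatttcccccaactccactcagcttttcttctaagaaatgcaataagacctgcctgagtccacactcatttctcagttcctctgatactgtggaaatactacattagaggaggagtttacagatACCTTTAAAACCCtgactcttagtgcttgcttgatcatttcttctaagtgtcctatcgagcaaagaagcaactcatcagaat
Stfa2l1: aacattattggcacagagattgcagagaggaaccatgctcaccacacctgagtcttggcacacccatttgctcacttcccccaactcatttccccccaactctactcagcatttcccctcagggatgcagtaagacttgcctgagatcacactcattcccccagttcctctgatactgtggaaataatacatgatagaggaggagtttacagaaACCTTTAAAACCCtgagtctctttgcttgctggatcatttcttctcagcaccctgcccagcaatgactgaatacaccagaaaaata
Stfa1: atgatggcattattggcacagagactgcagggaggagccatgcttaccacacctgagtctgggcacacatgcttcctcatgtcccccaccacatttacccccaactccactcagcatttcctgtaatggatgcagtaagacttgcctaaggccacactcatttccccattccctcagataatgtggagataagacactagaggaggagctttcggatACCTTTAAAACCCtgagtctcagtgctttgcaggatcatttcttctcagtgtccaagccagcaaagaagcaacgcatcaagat
BC100530: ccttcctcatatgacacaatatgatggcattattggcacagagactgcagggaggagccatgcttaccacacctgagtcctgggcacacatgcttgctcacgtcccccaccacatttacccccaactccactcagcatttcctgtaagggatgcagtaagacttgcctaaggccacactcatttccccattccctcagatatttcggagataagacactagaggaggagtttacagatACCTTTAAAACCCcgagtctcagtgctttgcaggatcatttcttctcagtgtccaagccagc
The windows are chr16:36183962-36184261 for Gm5483, chr16:36156561-36156860 for Stfa2l1 and chr16:36276898-36277197 for Stfa1, all on the plus strand, and chr16:36367521-36367820 on the minus strand for BC100530. The run starts 32, 36, 33 and 12 bases before the annotated gene start of Gm5483, Stfa2l1, Stfa1 and BC100530. Searched on both strands, the run in capitals was found in 9 of 32851 mouse promoter windows (0.0274%), and the other in 10 (0.0304%). The 9 were the 4 members, Csta3, Stfa2, Stfa3, Cstdc3 and the gene model Gm7260. The shorter TTTAAAA, which lies inside the run, is common, in 8.74% of all promoters, while TATAAA was in none of the 4 and in 13.6% of all.

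Other short motifs, searched on both strands, were shared to different degrees. GAGGAGGAG, searched like the run after the sequences had been read, stood in all 4 promoters and in 3.37% of all windows. TTGCNNAA stood in the promoters of Stfa1 and BC100530 and in 10.8% of all windows, while AGAGGAAG (4.55% of all windows) and TGANTCA (7.81%) stood in none of the 4. The Stfa1 and BC100530 promoters were 96.4% identical over their aligned bases, while the other 5 pairs were 81.5% to 85.8% identical. All matches were letters in these windows and say nothing of a factor's binding.

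The likeness of the transcripts bears on how well reads can be told apart. The longest protein-coding transcripts of Stfa1 and BC100530 were 97.1% identical, and 43.2% of the 100-base windows of Stfa1 had a match in BC100530 with at most 2 mismatches. Gm5483 was 94.9% identical to 2010005H15Rik, with 54.0% of its windows within 2 mismatches, and Stfa2l1 was 96.0% identical to Stfa2, with 35.6%. By contrast, Stfa2l1 and Gm5483 were 80.6% identical, and no 100-base window of one came closer than 12 mismatches to the other. Read 2 of these libraries was 100 bases long per the labels, and how reads that match several genes were assigned is not given in the sources used here. The counts of Stfa1 and BC100530, of Gm5483 and 2010005H15Rik, and of Stfa2l1 and Stfa2 are therefore uncertain within each pair.

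In all, 38804 barcodes (11939, 11602 and 15263 in libraries 1, 2 and 3, where the labels state 11111, 10668 and 14363 filtered cells by a filter not given in the sources used here) held 317292689 UMIs (unique molecules), with library totals of 101384374, 99782608 and 116125707 in libraries 1, 2 and 3. Filtering took away 82 barcodes for low quality and 1847 as doublets, and 36875 cells were analysed. Cells were gated by marker genes that include no stefin, which gave 11863 neutrophil-gated cells, 34.2%, 38.8% and 25.4% of libraries 1, 2 and 3. Their neutrophil identity was checked with S100a8, which the gate did not use and which stood at 65508, 77428 and 37179 CPM (UMIs of a gene in 1000000 UMIs of the summed cells) inside the gate, against 1817, 3217 and 984 CPM outside it. The median neutrophil-gated cell held 1921, 2149 and 1618 UMIs. A further 11780 cells met no gate and 531 met several. Cell names shared between library pairs numbered 2588 to 2860, but the names are running numbers and not barcode sequences, so shared barcodes could not be counted.

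Gm5483 and Stfa2l1 were the abundant members in neutrophils, and Stfa1 and BC100530 were several times lower. Gm5483 stood at 1149, 955 and 840 CPM in the neutrophil-gated cells of libraries 1, 2 and 3, a mean of 981 ± 156 CPM (SD, n = 3 libraries). Stfa2l1 stood at 1049, 833 and 821 CPM, a mean of 901 ± 129. These levels overlap, so the order of the first 2 members does not go beyond the spread between libraries. Stfa1, the namesake of the family, stood at 404, 241 and 175 CPM (273 ± 118), and BC100530 at 174, 104 and 90.8 CPM (123 ± 45.0). Stfa1 was above BC100530 within every library, but its lowest library lay at 175 CPM and the highest of BC100530 at 174 CPM. A UMI counts a molecule whatever its length, so the levels were not divided by transcript length. Library 1 was highest and library 3 lowest for all 4 members, which together stood at 2776, 2133 and 1927 CPM. S100a8, also lowest in library 3, did not follow the same order, since it was highest in library 2.

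The 4 members together stood at 2279 ± 443 CPM in neutrophil-gated cells, against 63.2 ± 9.38 CPM in all cells outside the gate (SD, n = 3), 36.0-fold higher in neutrophils. Neutrophil-gated cells carried 72.6% to 83.7% of each member's UMIs in every library, while they carried 10.3%, 14.1% and 7.31% of all UMIs in libraries 1, 2 and 3. Since the members were picked for this bias, the ratio is a description. The lowest class means were in T/NK cells, at 46.9 ± 13.2 CPM for the 4 members together, and endothelial cells, at 50.7 ± 5.28. Fibroblasts stood at 54.0 ± 9.70, monocytes and macrophages at 59.2 ± 8.47, osteoclasts at 59.9 ± 5.27, dendritic cells at 66.9 ± 28.4, erythroid cells at 80.01 ± 58.5 and mural cells, the contractile cells around vessels, at 89.6 ± 48.1. These 8 classes do not differ from their neighbours in this order beyond their spread.

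In the classes with the most cells, the 4 members together stood at 0.857 to 1.20 times a limit set for free RNA, and single members ranged more widely. Droplets take up RNA released by broken cells, and the limit was taken from S100a8 and S100a9, as the level expected if all of their UMIs in a class were free RNA with the make-up of the whole library. A level at this limit could come from free RNA alone, so it is not read as expression in that class. Neutrophil-gated cells themselves stood at 1.02, 1.05 and 0.987 times the limit for the 4 members together. A ratio near 1 therefore cannot tell free RNA from expression that follows S100a8 and S100a9. For the 4 members together, the measured level was 1.03 to 1.20 times this limit in monocytes and macrophages, 0.946 to 1.16 times in fibroblasts, 0.857 to 1.13 times in endothelial cells and 1.01 to 1.17 times in T/NK cells over the 3 libraries. Taken alone, Gm5483 was above the limit in every library of monocytes and macrophages, at 1.14, 1.37 and 1.22 times, and of fibroblasts, at 1.06, 1.21 and 1.10 times. BC100530 ran from 0.268 to 1.43 times the limit in monocytes and macrophages, from 9 to 39 UMIs a library.

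The mix of the members differed by a few percentage points between the sides of the gate. Gm5483 made up 41.4%, 44.8% and 43.6% of the members' UMIs in neutrophil-gated cells of libraries 1, 2 and 3, against 43.7%, 45.6% and 47.7% outside the gate. It was thus higher outside in every library, with exact binomial 95% intervals apart in libraries 1 and 3, which cover counting error only. Stfa2l1 made up 37.8%, 39.0% and 42.6% in neutrophil-gated cells, against 36.6%, 38.3% and 39.5% outside the gate. Stfa1 made up 14.5%, 11.3% and 9.07% in neutrophil-gated cells, against 13.6%, 11.3% and 8.81% outside, so the differences between libraries appeared on both sides of the gate.

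The excess of Stfa1 and BC100530 over this limit in mural cells of library 1 rested on single cells. Mural cells of library 1 held Stfa1 at 43.1 CPM, 4.04 times the limit, and BC100530 at 21.3 CPM, 4.61 times the limit. Of the 105 Stfa1 UMIs in these 209 cells, 84 lay in 1 cell, and of the 52 BC100530 UMIs, 45 lay in 1 cell. In the mural cells of libraries 2 and 3 BC100530 stood at 0.836 and 0.708 times the limit, and Stfa1 at 1.25 and 1.96 times, from 21 and 11 UMIs. The 4 members together stood at 1.12 and 1.49 times the limit there, with Stfa2l1 at 1.80 times in library 3 from 47 UMIs, and how these UMIs spread over cells was not tested. Dendritic cells of library 2 stood at 2.47 times the limit for the 4 members together, from 24 UMIs.

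**Figure D1:**
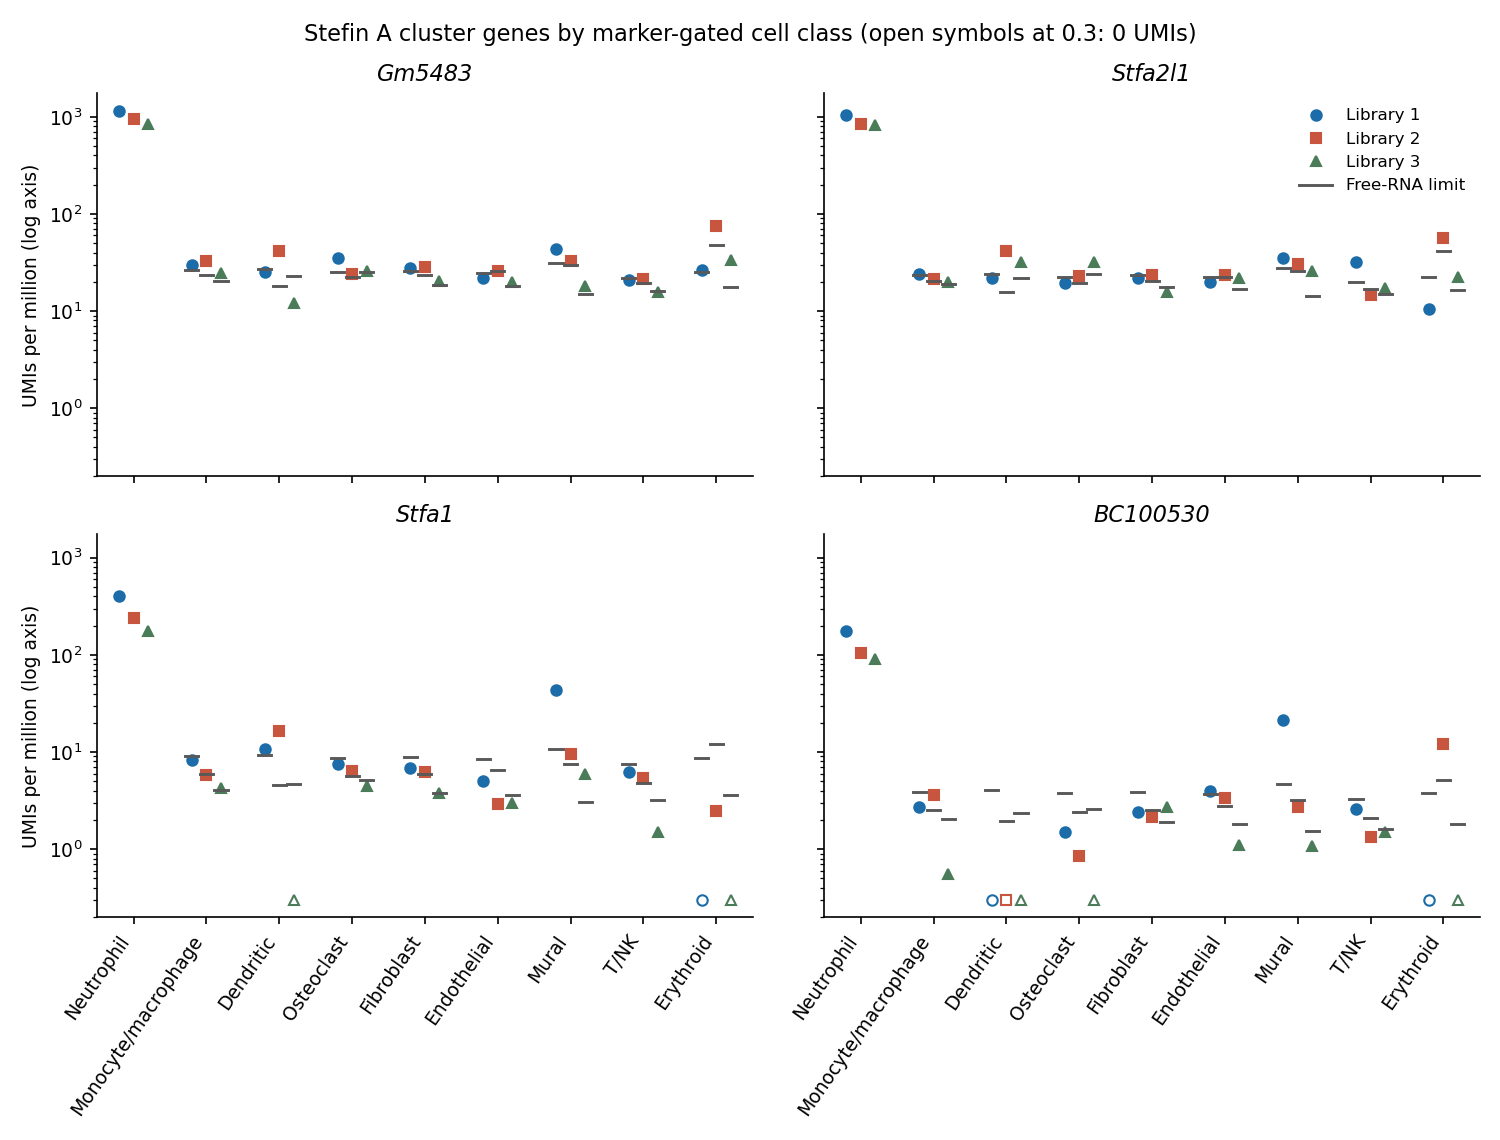
Level of each member, in CPM on a log axis, in 9 marker-gated cell classes, with 1 point per library and a short bar at the free-RNA limit of that class and library. Open symbols at the foot stand for 0 UMIs. The neutrophil points of Gm5483 lie between 840 and 1149 CPM, while Stfa1 and BC100530 in the mural cells of library 1, at 43.1 and 21.3 CPM, lie above their limits.

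Among neutrophils, the members were detected in only some cells, and a cell without a UMI may still carry the transcript. With every cell thinned to 1000 UMIs so that depth was equal, at least 1 UMI of Stfa2l1 was found in 38.7%, 34.0% and 34.5% of neutrophil-gated cells in libraries 1, 2 and 3, against 2.62%, 2.80% and 2.00% of the cells outside the gate. Gm5483 was found in 33.1%, 31.6% and 29.4%, against 2.86%, 3.37% and 2.88% outside. Stfa1 was found in 6.95% to 10.3%, against 0.430% to 0.944% outside, and BC100530 in 5.24%, 4.18% and 3.41%, against 0.479%, 0.486% and 0.224%. Without thinning, Stfa1 was found in 13.4%, 12.7% and 8.62% of neutrophil-gated cells and in 4.10%, 2.90% and 0.769% of T/NK cells, whose median depth was 4995, 5006 and 4058 UMIs. Any of the 4 members was found in 51.4% ± 3.10 of thinned neutrophil-gated cells and in 4.25% ± 1.49 of thinned T/NK cells, which should lack these genes (SD, n = 3). Without thinning it was 61.1% ± 3.86 of neutrophil-gated cells.

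The neutrophil-gated cells were gated into 4 states by their own markers, none a stefin, and a further 107, 61 and 195 cells met the gates of both activation states. The largest was a plain mature state, called other mature here, with 2800, 2874 and 2305 cells in libraries 1, 2 and 3. Within it Stfa1 was rare but could be abundant in a cell. It was detected in 13.5%, 12.98% and 8.81% of these cells, yet the highest cell held 122, 53 and 38 Stfa1 UMIs. Cells with 10 or more Stfa1 UMIs numbered 88, 77 and 26, and they held 69.6%, 60.7% and 44.7% of all Stfa1 UMIs of the state. These cells were deeper, with medians of 3188, 2928 and 2305 UMIs, against 1904, 2009 and 1625 UMIs in the remaining cells, and their median doublet scores were 0.0373, 0.0452 and 0.0291, against 0.0395, 0.0421 and 0.0303. The part of depth and doublets in this spread was not tested. Split by depth into 3 equal parts, the cells of library 1 held Stfa1 at 321 CPM in the shallowest, 260 CPM in the middle and 564 CPM in the deepest part. In library 3 the same parts held 161, 251 and 174 CPM, so the deepest cells were not highest in every library.

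The other members were uneven too, in different degrees. The top 5% of cells held 82.4%, 80.6% and 89.1% of Stfa1 UMIs and 93.8%, 96.4% and 99.0% of BC100530 UMIs. BC100530 was detected in only 7.61%, 6.12% and 5.21% of these cells, so its share is largely set by how few cells held it. The same share was 47.0%, 47.2% and 45.5% for Gm5483 and 37.3%, 40.2% and 38.2% for Stfa2l1. On thinned counts, the Fano factor (the variance over the mean, which is 1 for pure counting noise) was 6.59, 5.07 and 6.66 for Stfa1, 5.78, 5.86 and 4.70 for Gm5483, 4.65, 4.25 and 5.14 for BC100530 and 4.03, 4.30 and 3.69 for Stfa2l1. The median over all ranked genes was 1.12, 1.12 and 1.13. All 4 members stood among the 30 highest of 2395 to 2608 ranked genes in every library. Genes were not matched by level in this ranking, and the part of level in it was not tested. Stfa2, a copy that is not a member, stood at 2.86 (rank 31) in library 1 and 4.33 (rank 15) in library 2, and was not ranked in library 3.

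**Figure D2:**
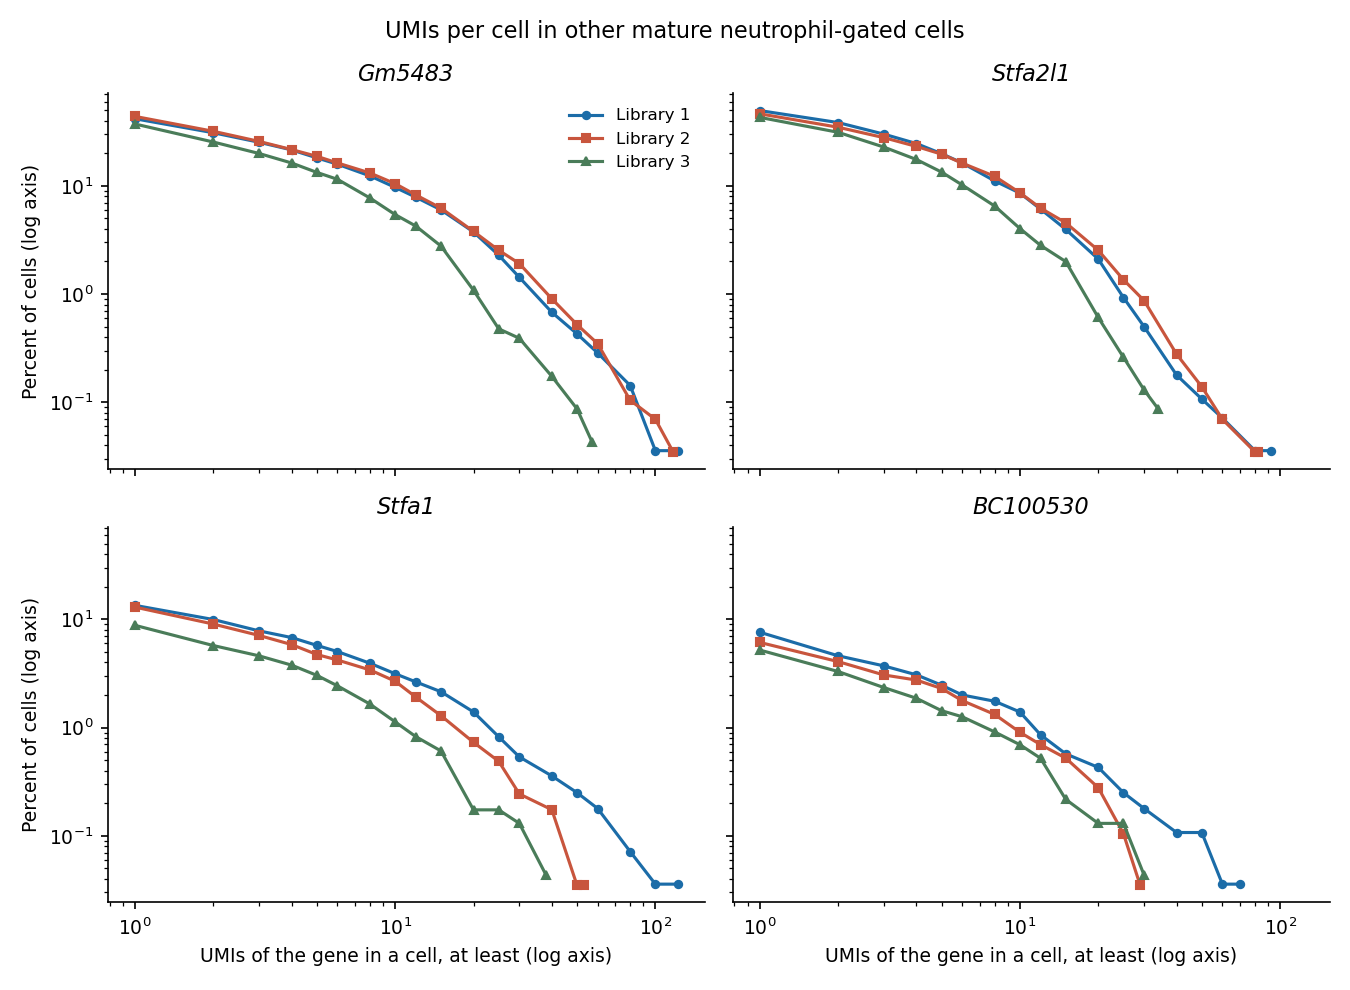
Percent of other mature neutrophil-gated cells (y, log axis) that hold at least a given number of UMIs of each member (x, log axis), with 1 line per library. The lines of Stfa1 start at 13.5%, 12.98% and 8.81% and reach 122, 53 and 38 UMIs, while those of Stfa2l1 start at 49.6%, 46.3% and 43.0% and reach 92, 82 and 34.

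Cells with one member more often held another. In thinned other mature cells, Gm5483 was found in 53.3%, 53.6% and 50.2% of cells with Stfa2l1 in libraries 1, 2 and 3, against 20.4%, 24.1% and 18.2% of cells without it. BC100530, whose transcript is hard to tell from that of Stfa1, was found in 18.8%, 16.7% and 14.9% of cells with Stfa1, against 3.59%, 2.93% and 3.08% of cells without. The groups do not overlap for either pair. Stfa2, the copy next to BC100530, was found in 17.2%, 22.8% and 22.2% of cells with BC100530, against 2.18%, 2.14% and 0.948% of cells without it. 2010005H15Rik, the copy next to Stfa1, was in 13.01%, 10.7% and 13.7% of Stfa1-positive cells, against 2.83%, 2.74% and 2.61% of Stfa1-negative ones. It was also in 13.8%, 13.01% and 13.3% of cells with BC100530, which is not next to it, against 3.35%, 3.09% and 2.98% without.

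**Figure D3:**
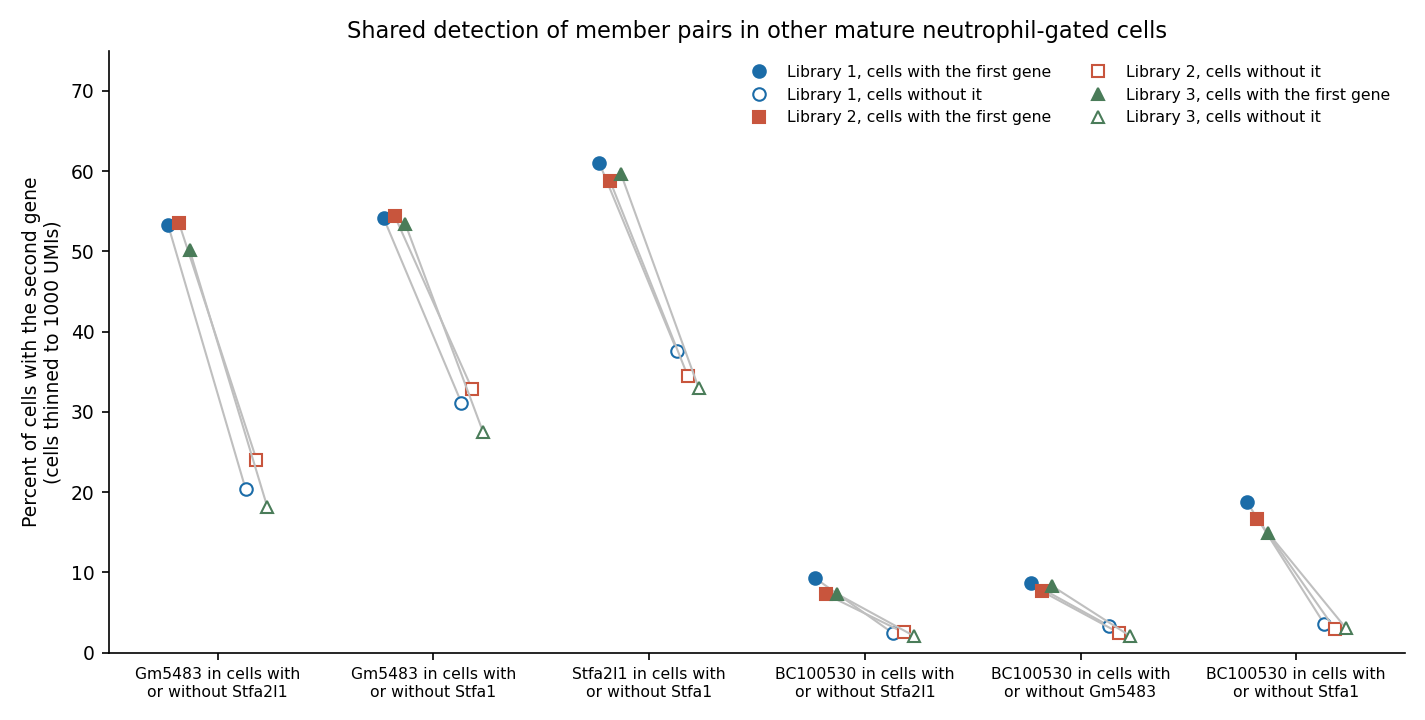
Percent of other mature neutrophil-gated cells, thinned to 1000 UMIs, that hold the second gene of a pair (y), for cells with the first gene (filled, left) and without it (open, right), 1 symbol per library. All 6 pairs of members lie higher in cells with the first gene, for example Gm5483 at 50.2% to 53.6% with Stfa2l1, against 18.2% to 24.1% without.

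The Pearson correlation of thinned counts, taken as log(count + 1), was computed over the same cells. It is a description over 2305 to 2874 cells per library that share library and ambient RNA. It was highest for Stfa2l1 and Gm5483, at 0.388 to 0.423 over the 3 libraries, 2 genes that lie next to each other and whose transcripts are 80.6% identical. By the mean of the 3 libraries the next pair was BC100530 and its neighbour Stfa2, with transcripts 80.7% identical, but it stood at 0.195, 0.281 and 0.405 in libraries 1, 2 and 3, and in library 1 several other pairs were higher. Stfa1 and BC100530, near-identical in sequence at 97.1%, reached 0.193 to 0.237. Gm5483 and 2010005H15Rik, at 94.9% identity, reached 0.141 to 0.180. In every library the pair of Stfa2l1 and Gm5483 was above both of these more similar pairs, each of which has a scarcer gene. BC100530 stood at 173, 123 and 104 CPM in these cells and 2010005H15Rik at 58.9, 53.1 and 56.1, against 1144, 1113 and 837 for Stfa2l1. For detection with over without the first gene, BC100530 by Stfa1 stood at ratios of 5.25, 5.71 and 4.84. Gm5483 by Stfa2l1 stood lower there, at 2.62, 2.23 and 2.76. The part of abundance in this order was not tested. The other pairs of members lay between 0.139 and 0.210. The part of sparse counts in these low values was not tested. Neighbours were not always high, since Gm5483 and Gm5416 reached 0.0817 to 0.142.

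Gm5483, Stfa2l1 and Stfa1 were lower in the immature state, granule-gene-high cells, which carry the transcripts of secondary granules (gated by Ngp, Camp, Ltf, Fcnb and Cebpe) that neutrophils make in bone marrow before they mature. This state had 731 cells, 137, 512 and 82 in libraries 1, 2 and 3, and was set against all 11132 mature neutrophil-gated cells. Gm5483 stood at 238, 191 and 448 CPM in granule-gene-high cells, against 1243, 1276 and 860 CPM in mature cells. Stfa2l1 stood at 288, 193 and 321 CPM in granule-gene-high cells, against 1128, 1101 and 846 CPM in mature cells. For both genes the groups do not overlap. Gm5483 fell by 1.82 ± 0.20 on the log2 scale (SE, edgeR quasi-likelihood test with the library as a block, Benjamini-Hochberg adjusted p = 1.71e-17) and Stfa2l1 fell by 1.75 ± 0.20 (edgeR adjusted p = 9.23e-17), each in 3 of 3 libraries. The test shares its estimate of spread over genes. These p-values and SEs are thus not a measure of each gene's own spread between the 3 libraries of pooled mice. The log2 fold changes lay between -2.66 and -1.38 for Gm5483 and between -2.07 and -1.40 for Stfa2l1 under all alternatives run.

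Stfa1 and BC100530 were less clear. Stfa1 stood at 289, 105 and 38.0 CPM in granule-gene-high cells, against 415, 299 and 182 CPM in mature cells, lower within each of the 3 libraries while the ranges overlap. It fell by 1.03 ± 0.20 on the log2 scale (edgeR adjusted p = 4.64e-06), just past the fold of 1 that a call required. The call ended without the library block (-0.69, edgeR adjusted p = 0.276), with cells thinned to 1000 UMIs (-0.72, edgeR adjusted p = 0.00103), without library 2 (-0.59, edgeR adjusted p = 0.00205) and without library 3 (-0.81, edgeR adjusted p = 0.0174). BC100530 stood at 172, 75.003 and 10.9 CPM in granule-gene-high cells, against 175, 116 and 94.8 CPM in mature cells, and was not called (-0.46 ± 0.21, edgeR adjusted p = 0.0861). It was called lower with a stricter state gate (-1.39) and without library 1 (-1.01). So 3 of the 4 members were called lower in this comparison, in which 9.8% of 12030 tested genes were called lower, 6.82% higher and 16.6% in either direction. At an adjusted p under 0.05 alone, the same 3 members passed, where 27.6% of all genes did. The median log2 fold change of the 4 members was -1.39, and that of the tested genes -0.02.

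Few cells set these levels. In granule-gene-high cells the 3 highest cells held 54.2%, 44.5% and 100% of the Stfa1 UMIs of libraries 1, 2 and 3, and library 3 had 14 Stfa1 UMIs in all, in 3 cells. For BC100530 the 3 highest cells held 68.2%, 61.9% and 100%, and library 3 had 4 UMIs. For Gm5483 they held 35.0%, 36.2% and 70.9%, and without the UMIs of these cells its level was 154, 122 and 130 CPM. For Stfa2l1 they held 41.8%, 15.2% and 43.2%, and its level without them was 168, 164 and 182 CPM. Thinned to equal depth, Stfa2l1 was found in 13.4% ± 2.70 of granule-gene-high cells and 37.2% ± 2.30 of mature cells (SD, n = 3), and Gm5483 in 12.7% ± 5.33 and 32.8% ± 2.63. BC100530 was found in 4.35% ± 2.59 of granule-gene-high cells and 4.30% ± 0.870 of mature cells. Granule-gene-high cells were deeper, with medians of 5841, 6143 and 3876 UMIs, against 1889, 1997 and 1605 UMIs in mature cells. On thinned counts, where depth is equal, Gm5483 (-2.10) and Stfa2l1 (-2.05) were called, and Stfa1 (-0.72) and BC100530 (0.04) were not. Scaling by library totals shifted the median over all tested genes by -0.21 (log2) in this comparison, and Gm5483 (-2.06), Stfa2l1 (-1.99) and Stfa1 (-1.25) were called lower with it.

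The remaining stefins and cystatins were called in both directions between these states. Of 8 tested genes of that list, 2 were called lower, 1 higher and 5 were not called, and the list's median log2 fold change was -0.77, against -0.02 for all genes. The 2 lower genes were copies of the cluster, 2010005H15Rik (-2.14 ± 0.26) and Gm5416 (-2.35 ± 0.38). 2010005H15Rik had 15.3 and 13.5 CPM in granule-gene-high cells of libraries 1 and 2 and 0 UMIs in library 3, which allows up to 8.15 CPM, against 70.5, 56.6 and 65.6 CPM in mature cells. Stfa3, at the far end of the cluster, went the other way (1.26 ± 0.25, edgeR adjusted p = 3.20e-06), with 44.9, 22.4 and 24.4 CPM in granule-gene-high cells, against 19.8, 12.8 and 9.52 CPM in mature cells. It was not called with a stricter state gate (0.70), and its level rests on few cells, since the 3 highest held 63.4%, 76.1% and 88.9% of its UMIs in granule-gene-high cells. Stfa2 (-0.68 ± 0.23), the broadly expressed stefin B gene Cstb (-0.86 ± 0.19) and the secreted inhibitor cystatin C gene Cst3 (-0.86 ± 0.19) did not reach the fold required.

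Of the genes for cysteine cathepsins and legumain, 0 of 10 tested were called, with edgeR or with DESeq2, while 6 had an unadjusted edgeR p under 0.05. Ctsl, Ctss, Ctsb, Ctsz and Ctsh also passed an adjusted p under 0.05 (edgeR, 3.50e-05 to 0.0275), as 27.6% of all genes did, and were short of the fold. The log2 fold changes in this list were -0.91 ± 0.20 for Ctsl, -0.80 ± 0.19 for Ctss, -0.74 ± 0.19 for Ctsb, -0.71 ± 0.19 for Ctsz, -0.48 ± 0.20 for Ctsc, -0.25 ± 0.20 for Lgmn, 0.36 ± 0.21 for Ctsk and 0.52 ± 0.19 for Ctsh. Among 12 other protease inhibitor genes of leukocytes, 2 were called higher and 1 lower, led by Serpinb1a (4.36 ± 0.21), an inhibitor of neutrophil serine proteases, and Wfdc17 (-2.84 ± 0.21). Of 17 genes listed as late neutrophil genes, 6 were called higher and 7 lower, led by the siderophore-binding protein gene Lcn2 (2.98 ± 0.23) and the cytokine gene Il1b (-2.86 ± 0.22). That name does not describe all of them. Lcn2 stood at 13050, 14246 and 14866 CPM in granule-gene-high cells, against 2176, 2550 and 1660 CPM in mature cells. Gm5483 and Stfa2l1 were thus lower in granule-gene-high cells, as Il1b was, while Lcn2 and Serpinb1a were higher.

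No member was called when either activation state of the mature cells was set against other mature cells. Ccl3/Ccl4-high cells, which carry transcripts of 2 chemokines induced by inflammatory stimuli, numbered 570, 608 and 580. Gm5483 stood at 1249, 1322 and 842 CPM in them, against 1255, 1298 and 862 CPM in other mature cells. Stfa2l1 stood at 1054, 1127 and 847 CPM in Ccl3/Ccl4-high cells, against 1144, 1113 and 837 CPM in other mature cells. The ranges overlap for both, with log2 fold changes of -0.02 ± 0.08 and -0.05 ± 0.08 (edgeR adjusted p = 0.940 and 0.859). Stfa1 stood at 355, 250 and 123 CPM in Ccl3/Ccl4-high cells, against 440, 306 and 191 CPM in other mature cells, lower in 3 of 3 libraries (-0.41 ± 0.09, edgeR adjusted p = 0.00297) but short of the fold of 1. BC100530 stood at 196, 102 and 61.7 CPM, against 173, 123 and 104 CPM (-0.23 ± 0.11, edgeR adjusted p = 0.326). Thus 0 of 4 members were called, where 0.44% of 10443 genes were (0.115% higher and 0.326% lower). At an adjusted p under 0.05 alone, without the fold, 1 member passed, where 4.9% of all genes did. An unadjusted edgeR p under 0.05 was given by 1 member, Stfa1, and DESeq2 called 6 genes and 0 members. Without the library block the adjusted p of Stfa1 was 0.761 in edgeR, within a range of 6.94e-05 to 0.761 over all alternatives.

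Of 6 tested genes in the stefin and cystatin list, 1 was called, Stfa3, which was lower in Ccl3/Ccl4-high cells (-1.32 ± 0.32, edgeR adjusted p = 0.00725), with 5.05, 4.94 and 11.4 CPM against 24.96, 15.5 and 10.1 CPM in other mature cells. Library 3 went the other way, so Stfa3 was lower in 2 of 3 libraries. The call ended without library 1 (-0.74), without the library block (-1.34), with a stricter state gate (-1.18) and with thinned counts (-1.08). Stfa2 (-0.84 ± 0.16), 2010005H15Rik (0.65 ± 0.12) and Cstb (0.58 ± 0.08) had the same direction in 3 of 3 libraries and stayed short of the fold, and Cst3 (0.18 ± 0.08) and Gm5416 (0.17 ± 0.20) did not pass. DESeq2 gave no adjusted p for Stfa3. Among the genes listed as late neutrophil genes, Retnlg (-1.15 ± 0.09), a resistin-like secreted protein gene, was the 1 called of 17. Its call ended without the library block (-1.23). Other genes of that list passed an edgeR adjusted p under 0.05 but not the fold, among them Mmp8 (-0.99), Lcn2 (-0.70) and Icam1 (0.88). Of the cathepsin and legumain genes 0 of 10 were called, and of the other inhibitor genes 0 of 12, with edgeR or DESeq2. In each list 5 had an unadjusted edgeR p under 0.05. Those with an edgeR adjusted p under 0.05 were Ctsc (0.0317) and Ctsb (0.0339) in the first list. In the second they were Wfdc21 (1.45e-05), Serpinb1a (0.00479) and Timp1 (0.0165). The cathepsin genes ran between -0.38 for Ctsc and 0.28 for Ctsb on the log2 scale.

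Interferon-high cells, gated by genes such as Rsad2, Isg15 and Ifit1 that type I interferon induces, numbered 297, 256 and 479. Gm5483 stood at 1081, 1046 and 781 CPM in them, against 1255, 1298 and 862 CPM in other mature cells (-0.18 ± 0.07, edgeR adjusted p = 0.117). Stfa2l1 stood at 1040, 1001 and 902 CPM in interferon-high cells, against 1144, 1113 and 837 CPM in other mature cells (-0.01 ± 0.07, edgeR adjusted p = 0.962). Stfa1, at 321, 358 and 219 CPM against 440, 306 and 191 CPM, was higher in 2 of 3 libraries (0.03 ± 0.09, edgeR adjusted p = 0.942). BC100530 stood at 188, 44.7 and 95.4 CPM, against 173, 123 and 104 CPM (-0.26 ± 0.14, edgeR adjusted p = 0.344). The ranges overlap for every member, and 0 of 4 were called with edgeR or DESeq2, where edgeR called 1.74% of 10292 genes (1.46% higher and 0.282% lower). At an adjusted p under 0.05 alone, 0 of 4 members passed, where 6.36% of all genes did. An unadjusted edgeR p under 0.05 was given by 1 member, Gm5483.

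Of 6 tested stefin and cystatin genes in interferon-high cells, Stfa3 was again the 1 called (-2.03 ± 0.45, edgeR adjusted p = 0.000603), with 0 UMIs in library 1, which allows up to 4.70 CPM, and 1.72 and 7.86 CPM in libraries 2 and 3, against 24.96, 15.5 and 10.1 CPM in other mature cells. This call ended without library 1 (-1.14), without the library block (-2.15) and with thinned counts (-1.37). The others were Stfa2 (-0.74 ± 0.19), Gm5416 (-0.52 ± 0.30), 2010005H15Rik (0.31 ± 0.16), Cst3 (0.14 ± 0.06) and Cstb (-0.12 ± 0.08), none called. Among them Stfa2 passed the adjusted p (edgeR, 0.00375) but not the fold. Of the cathepsin and legumain genes 0 of 10 were called with edgeR or DESeq2, with 4 at an unadjusted edgeR p under 0.05. Among these 4, Ctss and Ctsz also passed the adjusted p (edgeR, 0.0353 and 0.0358). The log2 fold changes of the list lay between -0.26 for Ctsc and 1.07 for Ctso. Of the other inhibitor genes 0 of 11 and of the genes listed as late 0 of 17 were called with either tool. Of these, 5 and 15 had an unadjusted edgeR p under 0.05. At an adjusted p under 0.05 alone, Wfdc21 (-0.37) of the inhibitors and many of the genes listed as late passed, where 6.36% of all genes did. They were short of the fold, among them Retnlg (-0.72, edgeR adjusted p = 3.49e-20), Mmp8 (-0.77), Icam1 (0.97, edgeR adjusted p = 9.80e-16) and Il1b (0.29). Both activation comparisons used the same other mature cells. Whether the members differ between the 2 activation states was not tested.

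**Figure D4:**
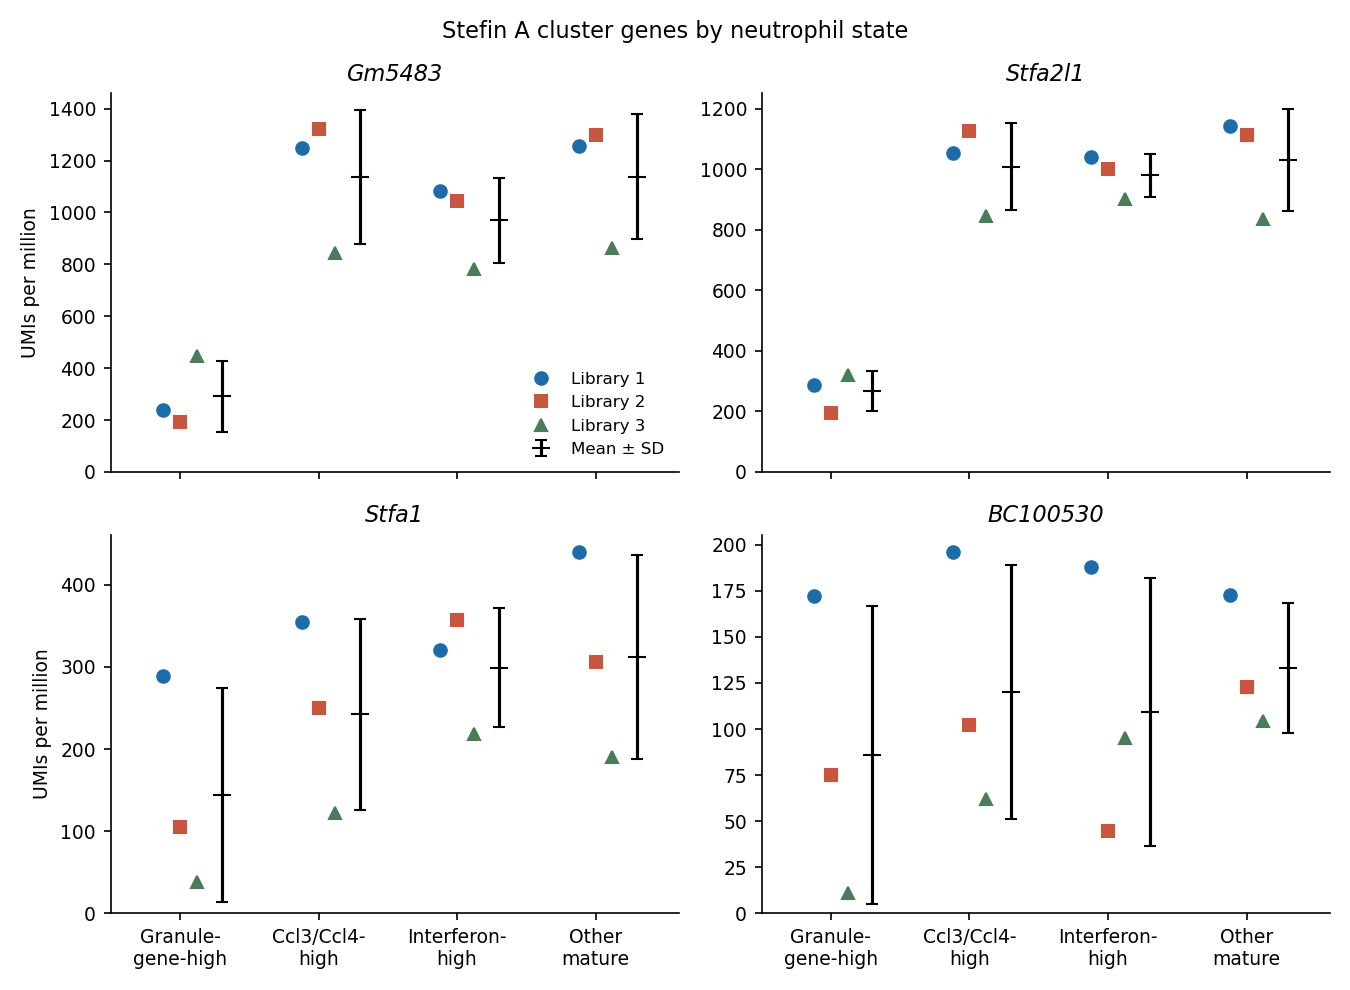
Level of each member, in CPM, in 4 neutrophil states, with 1 point per library and the mean and SD of the 3 libraries beside them. The granule-gene-high points of Gm5483 and Stfa2l1 lie between 191 and 448 CPM, below all points of the other states, while those of Stfa1 and BC100530 spread over the range of the other states or below it.

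The genes most like the summed members over 27 sums of class and library, out of 2427 genes at 50 CPM or more in neutrophils, were Cxcr2 (Pearson r = 0.975), S100a9 (0.965), Hdc (0.965), S100a8 (0.959) and Dhrs9 (0.951). These are descriptions of points that share libraries and free RNA, and Cxcr2 and Hdc are gate genes. Over 12 sums of neutrophil state and library the order changed, to Hmha1 (0.985), Cnnm2 (0.979), Selplg (0.978), 1600010M07Rik (0.978) and Stk17b (0.977). Over these states S100a8 (-0.70) and S100a9 (-0.77) ran the other way from the members, although both lie among the closest genes over cell classes.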

How the data were processed

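Single-cell libraries of dissociated synovium were made with the DNBelab C system and sequenced on a DNBSEQ-T7. The authors deposited 1 matrix of UMI counts a library, genes by cells, written with PISA 1.0 per the file headers. The submitters' processing notes name Seurat 3.0.2, R 3.6 and GRCm39. No aligner, annotation or treatment of multi-mapping reads is given in the sources used here. Barcodes with fewer than 200 genes or over 20% mitochondrial UMIs were dropped, and cells with a Scrublet doublet score over 0.2 were left out (scanpy 1.11.5). A class gate needed at least 3 detected markers, at 2 times or more their share in the library, and no other class's gate, and the neutrophil gate also took cells that met it with the granule markers. States needed 10 granule, 5 chemokine or 3 interferon marker UMIs per 1000 UMIs. These thresholds were set after the distributions had been seen. The members and gene lists were chosen with earlier results of these data known. Counts were summed per library and state, with at least 20 cells a sum, and tested with edgeR 4.0.16 (R 4.3.3; quasi-likelihood F-test, TMM, filterByExpr, two-sided, Benjamini-Hochberg over all genes tested), with the library as a block because both sums of a library come from the same mice. Genes were called at an adjusted p below 0.05 with a log2 fold change of 1 or more in size. On data simulated for the Ccl3/Ccl4-high comparison (10346 genes), recovery was counted by an adjusted p below 0.05 and the right direction, without the fold. It was 54.5% of genes changed by a log2 of 1 and 85.9% of those changed by 2. The simulation used the same dispersion for every gene and no difference between libraries except depth, so recovery in the data may differ. Genes named besides the members are stefin, cystatin and cathepsin genes at 10 CPM or more, the called gene with the largest change in each direction of the other lists, and the 5 genes most alike in log2(CPM + 1), among those at 50 CPM or more. Some uncalled genes of the other lists are named too, where they passed the adjusted p short of the fold. Promoters come from a RefSeq table (GRCm38.p6), transcripts from GENCODE vM21. DESeq2 1.42.0, other scalings, filters, gates, doublet and depth treatments and leaving out each library were tried as alternatives.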

Additional observations from a re-analysis of the deposited data

How the results depend on the processing

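The levels of the members in neutrophil-gated cells moved by less than the SD between libraries under every alternative run (35 of 35 values), with 2030 to 2455 CPM for the 4 members together. Leaving out a library cannot move a mean of 3 libraries by a full SD, so those of the 35 values are no check. Of 120 alternative fold changes of members, 97 had the same direction and side of the threshold, 4 lost a call, 2 gained one and 17 changed sign, none of them called. The pairing is by mice: both sums of a library come from the same mice, and with no replicate block 2 genes were called in the Ccl3/Ccl4-high comparison and 113 in the interferon-high one, against 46 and 179 with it. The Ccl3/Ccl4-high count was also 6 with DESeq2, 102 with a stricter state gate and 26 with thinned counts. Leaving out each library gave 49 to 61 genes there, 150 to 179 for interferon-high and 1341 to 2198 for granule-gene-high cells. The cause was not tested. Signs that changed in Ccl3/Ccl4-high cells were those of Stfa2l1 (0.0759) and Gm5483 (0.125) with doublets kept, and leaving out each library gave -0.105 to 0.0353 and -0.0459 to 0.0149 for these 2 genes. In interferon-high cells Stfa1 was at -0.0201 with library totals, -0.0527 with all genes that have a UMI, -0.0337 without the block, -0.206 with a stricter gate and -0.0438 with thinned counts. There Stfa2l1 was at 0.148 with doublets kept and 0.0204 with a stricter gate. Leaving out each library gave -0.124 to 0.260 for Stfa1, -0.144 to 0.0530 for Stfa2l1 and -0.565 to 0.0706 for BC100530. In granule-gene-high cells BC100530 was at 0.0421 with thinned counts. Levels near the free-RNA limit, the few granule-gene-high cells behind each member and Stfa3, and 3 libraries limit what can be told.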
